A study of Mus musculus with 2 samples.

Results

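The cells examined here are the 370 liver immune cells that the authors' cell table names Macro, of 11929 named cells in all. They were taken by that name alone, with 109 from dnTGFβRII (TG) mice and 261 from wild type (WT) mice, and were described by the authors' clusters, against the 462 cells named Mono, and TG against WT. The name did not match its defining genes in most of these cells: the complement and Kupffer cell genes C1qa, C1qb and Vsig4 were found mainly in 1 cluster of 23 WT cells. The other 347 cells lay in parts whose summed profiles carried genes of conventional dendritic cells, in part beside classical monocyte genes, or of patrolling monocytes. The parts are therefore called by their leading genes below.

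The study set liver immune cells of a mouse model of primary biliary cholangitis beside those of WT mice. CD45+ cells were stained with antibody-coupled oligonucleotides, captured on BD Rhapsody and read as unique molecular identifiers (UMIs), each standing for 1 captured molecule. The mice were C57BL/6 and 10 weeks old per the labels (the study's methods give a younger age). TG mice express, from the mouse CD4 promoter that is active in T cells, a human type II receptor for TGF-β that blocks signalling (a dominant negative form). Each genotype came from 1 capture library that also held a second genotype: TG cells were pooled with IFN-γ ARE-Del-/- cells, and WT cells with P40-/-IL-2Ra-/- cells. With 1 library per genotype, an effect of genotype and one of the capture cannot be told apart, and no comparison of TG with WT has a replicate check or a test. Intervals are 95% and cover counting error only.

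Macrophages and dendritic cells take up proteins and show peptides from them to T cells on MHC class II molecules. Liver-resident macrophages, the Kupffer cells, sit in the sinusoids, clear particles from blood and make C1q, the first component of the classical complement pathway. Conventional dendritic cells of type 1 (XCR1, CLEC9A) specialise in presenting cell-associated antigen to CD8+ T cells, those of type 2 (SIRPα) in priming CD4+ T cells, and patrolling monocytes (low Ly6C, dependent on NR4A1) crawl along vessel walls. Interferon-γ, made by T and NK cells, raises MHC class II transcription through the coactivator CIITA.

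Macro cells fell into 3 of the authors' clusters at a resolution of 1.2. Cluster 15 held 89 TG and 158 WT cells, cluster 22 held 20 and 80, and cluster 27 held 0 and 23. The authors' clusters at the finer resolution of 2 split cluster 15 into one part with Cd209a (38 TG and 121 WT cells, the Cd209a subcluster) and one with Ace (51 and 37 cells, the Ace subcluster), while clusters 22 and 27 (the Xcr1 and C1q clusters) stayed whole. All Mono cells lay in cluster 5. These counts describe the libraries: cells were clustered on the genes that are compared below, so a difference in size is not read as a result.

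Cell depth differed between the libraries. The median cell of the Cd209a subcluster held 6534 UMIs (TG) or 4832 (WT), that of the Ace subcluster 3814 or 2658 and that of the Xcr1 cluster 8218 or 7041. In the WT C1q cluster the median was 7295. TG cells were the deeper ones in each of these pairs. In all, Macro cells held 612093 UMIs in TG and 1399657 in WT. Of cell indices, 267 occurred in both library files and 36 in both sets of named cells. Summed profiles below are given as CPM, UMIs scaled to the same total in each profile, and a gene is called higher or lower where the profiles differ at least 2-fold (with 0.5 UMIs added to each count) and hold at least 20 UMIs together.

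Macro cells were 2.35% of named cells in TG (interval 1.93 to 2.82) and 3.58% in WT (3.17 to 4.04), a difference of -1.24 percentage points (-1.84 to -0.615). Within Macro cells the Ace subcluster took 46.8% in TG (37.2 to 56.6) and 14.2% in WT (10.2 to 19.0). The Xcr1 cluster took 18.3% and 30.7%, and the Cd209a subcluster 34.9% and 46.4%. The C1q cluster was 8.81% of WT Macro cells (5.67 to 12.9), while the 0 of 109 TG cells allows a share of up to 2.75% by the limit of 3 counts used here for a count of 0 (3.33% by the exact interval). Which of the pools' cells received a genotype name was decided before deposit, so these shares are shares of named cells.

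**Figure D1:**
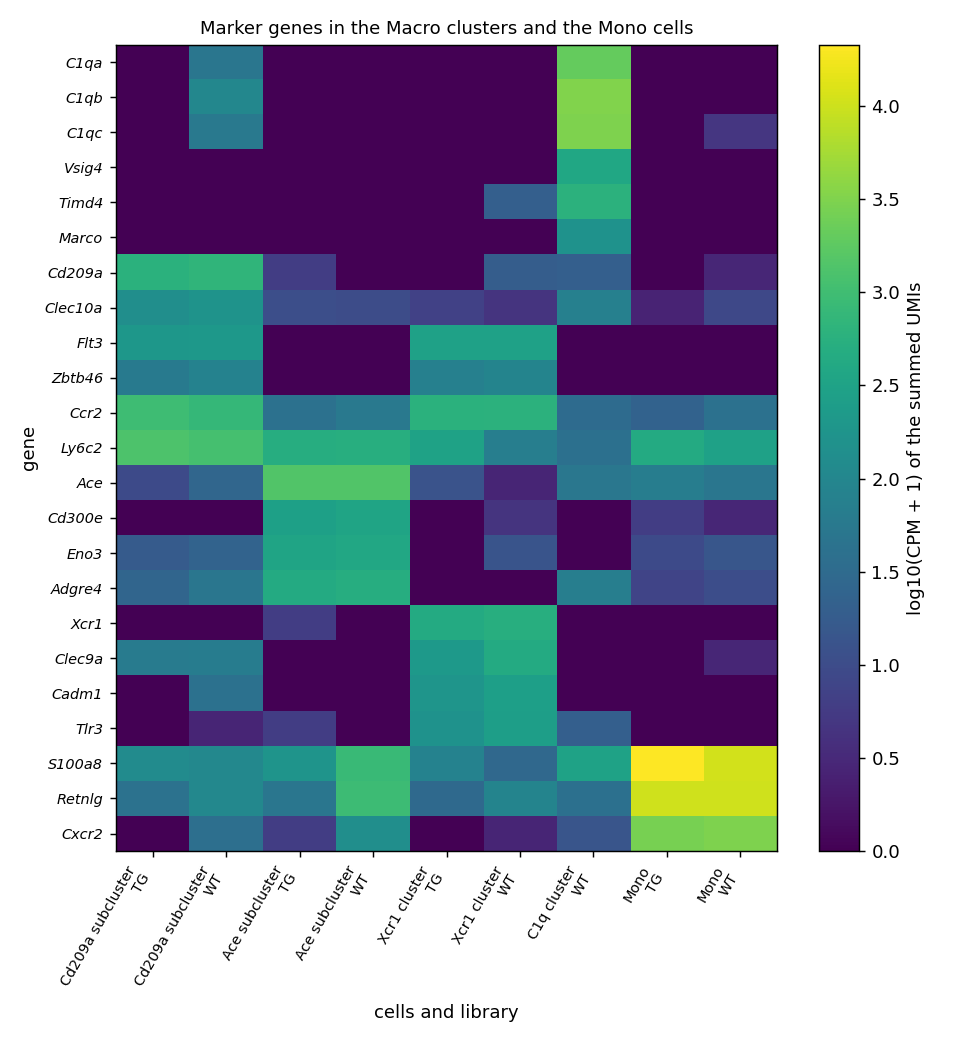
Levels of marker genes in the 4 parts of Macro and in Mono cells, TG and WT libraries; the colour scale gives log10 of CPM + 1 in the summed profile of each set of cells. C1qa, C1qb and Vsig4 stand out in the C1q cluster (WT only), Ace in the Ace subcluster, Cd209a in the Cd209a subcluster and Xcr1 in the Xcr1 cluster, with S100a8 in Mono.

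Of the label's markers the C1q cluster carried C1qa and C1qb, Vsig4 in 8 of its 23 cells, and no UMI of Clec4f. C1qa (chr4:136895917-136898803, minus strand, GRCm38), C1qb and C1qc encode the 3 chains of C1q and lie beside each other on chromosome 4. C1qa was measured at 2046 CPM (318 UMIs), C1qb at 3249 CPM (505 UMIs) and C1qc at 3076 CPM (478 UMIs). In the WT Ace subcluster and Xcr1 cluster C1qa, C1qb and C1qc were at 0 UMIs. The WT Cd209a subcluster held 28 UMIs of C1qa in 4 cells (49.2 CPM), 57 of C1qb in 5 cells (100.2 CPM) and 32 of C1qc in 6 cells (56.2 CPM). WT NK cells, which do not make C1q, held 1 UMI of C1qa, 2 of C1qb and 3 of C1qc in 615 cells. Vsig4, the complement receptor of tissue macrophages, was at 386 CPM (294.6 to 497.0) with 68.3% of its 60 UMIs in 3 cells.

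Of the Kupffer cell list, 8 of 20 genes reached 50 CPM in the C1q cluster and 1 of 20 in every other part of Macro. Timd4, a receptor for phosphatidylserine on dying cells, was at 598 CPM and Cd5l, a secreted inhibitor of apoptosis, at 644 CPM. The scavenger receptor Marco was at 161 CPM and Adgre1 (F4/80) at 1017 CPM. Cd163, Nr1h3 and Spic were at 0. The defining Kupffer cell gene Clec4f, like Folr2 and Clec1b, had no row in the filtered table and held 0 UMIs in these 23 cells when read from the unfiltered counts, which allows up to 19.2 CPM of each.

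Several further genes stood high in this cluster's profile, and whether its 23 cells are Kupffer cells or macrophages of another kind was not tested. Lyz2 (lysozyme) stood at 34129 CPM, Apoe (apolipoprotein E) at 17605 CPM and Saa3 (serum amyloid A3) at 9710 CPM. Prg4, which encodes the lubricant proteoglycan 4, was at 8063 CPM, Fn1 (fibronectin) at 7033 CPM and Alox15 (arachidonate 15-lipoxygenase) at 6737 CPM. These 3 genes were found in 21, 23 and 23 of the 23 cells. Of the complement list 11 of 18 genes reached 50 CPM: Cfp (properdin) was at 2117 CPM and Itgam (the complement receptor chain CD11b) at 2419 CPM, beside C4b at 5354 CPM. Ligand and latency genes of TGF-β were also present, with Tgfb2 at 650 CPM and Ltbp1 at 849 CPM.

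The C1q cluster had little antigen presentation transcript. Its 15 MHC class II list genes summed to 3172 CPM, against 52855 CPM in the WT Xcr1 cluster. H2-Aa was at 109 CPM and Cd74, the invariant chain, at 438 CPM with 77.9% of its UMIs in 3 cells. The dendritic cell genes Flt3, Zbtb46, Xcr1 and Clec9a were at 0 UMIs. Among chemokine genes Cxcl2 was at 5798 CPM, Cxcl13 at 2201 CPM and Cxcl1 at 2027 CPM, but 75.2% of the Cxcl13 and 65.4% of the Cxcl1 UMIs came from 3 cells. Of all genes tested in WT Macro cells (7296), 724 (9.92%) were at least 2-fold higher and 1750 lower in the C1q cluster than in the other Macro cells (median log2 ratio -0.29), which is a description, as the cells were clustered on these genes.

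No TG cell lay in the C1q cluster, and the deposited TG counts could not show C1q or Vsig4 transcript in a few such cells. After the authors' filter 630 genes were at 0 in all TG cells, and the 611 of them with UMIs in the TG library file were seen there in at most 9 cells. C1qa, C1qb, C1qc and Vsig4 were among these. That library file held 2 UMIs of C1qa, 15 of C1qb and 13 of C1qc over all 4647 named TG cells. Alox15 and Saa3, high in the WT cluster, were kept in both libraries. They had 0 and 1 UMIs over TG Macro cells, and 1050 and 1583 over WT Macro cells. By a minimum of 5 C1q UMIs per cell, 2 named TG cells (both in cluster 15) and 24 named WT cells (19 in cluster 27 and 5 in cluster 15) held C1q transcript. A cluster found in 1 library may be that library rather than a cell type.

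The Xcr1 cluster matched type 1 conventional dendritic cells. In both libraries 12 of 14 genes of that list and 11 of 12 genes shared by conventional dendritic cells reached 50 CPM. Xcr1, the receptor for XCL1, was at 448 CPM (TG) and 512 CPM (WT), and Cadm1, an adhesion molecule, at 177 and 278 CPM. Tlr3, a sensor of double-stranded RNA, was at 159 CPM and 271 CPM. Macrophage genes were few, with 6 of 18 in TG and 5 of 18 in WT of the pan macrophage list at 50 CPM. At least 2-fold higher here than in the other Macro cells were 8.17% of 5041 genes tested in TG and 6.65% of 7296 in WT, while 829 and 1001 genes were lower.

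The Cd209a subcluster carried genes of type 2 conventional dendritic cells together with monocyte genes and some genes of plasmacytoid dendritic cells (pDC). All 12 genes of the pan conventional list and 11 of 15 of the type 2 list reached 50 CPM in both libraries, as did 12 of 14 of the classical monocyte list. Cd209a, a C-type lectin, was at 590 CPM (TG) and 691 CPM (WT). Flt3, the growth factor receptor of dendritic cells, was at 194 and 206 CPM, and Zbtb46, a dendritic cell transcription factor, at 57.7 and 80.8 CPM. Ccr2 was at 973 and 768 CPM and Ly6c2 at 1345 and 1114 CPM, both genes of classical monocytes. Of 38 TG cells 30 had a UMI of Cd209a, Flt3 or Zbtb46, 25 had at least 2 UMIs of Chil3, F13a1 or Ly6c2, and 20 had both. Of 121 WT cells these were 81, 56 and 33. The pDC list stood at 1258 CPM (TG) and 1051 CPM (WT), with 3 and 6 of 10 genes at 50 CPM, against 186.6 to 285 CPM in the other parts of Macro and 13589 and 14848 CPM in the cells named pDC. Among the 10 genes highest over the other Macro cells were, beside Cd209a, the pDC list genes Tcf4, Bst2 and Runx2 in TG and Siglech and Runx2 in WT. CD4 T cells, which should lack Cd209a, held 0 UMIs of it in either library at median depths of 3189 and 2437.5 UMIs.

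The Ace subcluster matched patrolling monocytes. All 12 genes of that list reached 50 CPM in both libraries. Ace (chr11:105967945-105989964, plus strand, GRCm38), encoding angiotensin-converting enzyme, was at 1431 CPM (TG) and 1437 CPM (WT). It was at 68.5 and 49.8 CPM in Mono cells. Cd300e was at 290 and 334 CPM, and Cx3cr1, the fractalkine receptor, at 400 and 506 CPM. Nr4a1, on which these monocytes depend, was at 1626 CPM (TG) and 2911 CPM (WT). None of the 12 list genes differed 2-fold between the libraries. As 7.43% of all genes tested in this subcluster were higher in TG and 4.88% lower, that count is not read as a result. Cluster 15 as a whole had 16.4% of tested genes at least 2-fold higher than the other Macro cells in TG, and 9.75% in WT, where the other cells included the C1q cluster. In WT 60.3% of calls were higher, or 48.1% with TMM scaling.

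The surface antibodies followed the same division. Values are the authors' centred log ratios (natural log, relative to the other antibodies on a cell), given as medians over cells. CD172a (SIRPα), of myeloid cells other than type 1 dendritic cells, was 3.29 in TG and 3.21 in WT on the Ace subcluster, 2.43 and 2.09 on the Cd209a subcluster, 0.58 and 0.52 on the Xcr1 cluster and 1.81 on the C1q cluster. The Ace subcluster therefore stood 2.72 above the Xcr1 cluster in TG and 2.69 in WT. CD43, high on patrolling monocytes, was 2.96 and 3.18 on the Ace subcluster but 0.83 and 1.48 on the Cd209a subcluster. Among the parts of Macro CD11c was highest on the Xcr1 cluster at 2.30 and 2.602 and lowest on the C1q cluster at 0.33. CD24 was 1.98 and 1.92 on the Xcr1 cluster, against 0.08 and 0.27 on the Ace subcluster. CD366 (TIM-3) was 0.70 and 1.16 on the Xcr1 cluster and 0 on the Cd209a subcluster in both.

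**Figure D2:**
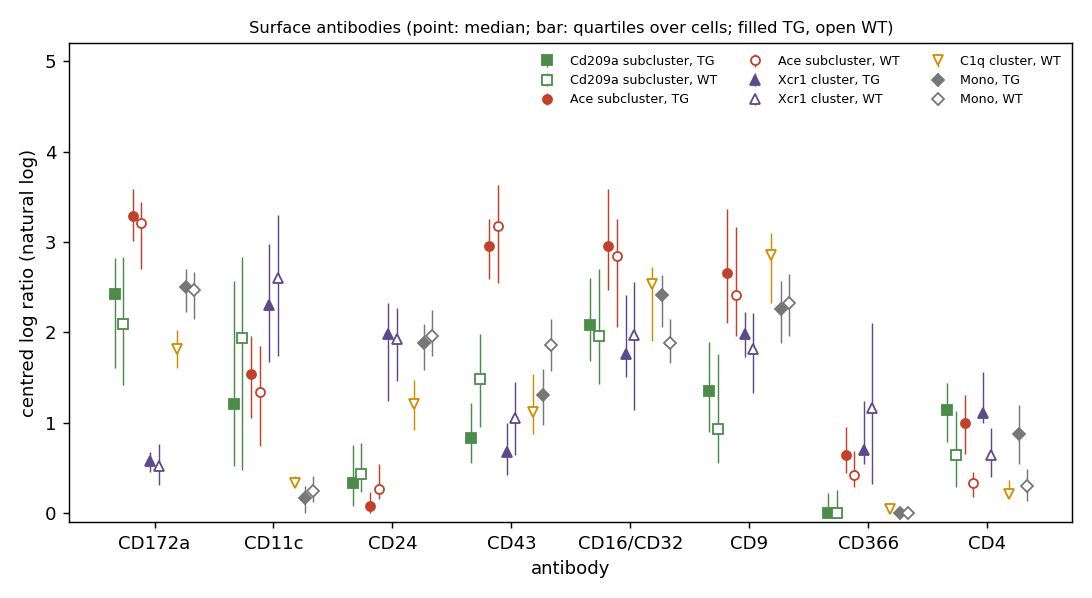
Median centred log ratio (natural log, bars at the quartiles over cells) of surface antibodies on each part of Macro and on Mono cells in TG and WT. CD172a separates the Ace subcluster (3.29 and 3.21) from the Xcr1 cluster (0.58 and 0.52) in both libraries, and CD43 is highest on the Ace subcluster.

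T cell antibodies differed between libraries on cells that should lack them. CD4 was 1.00 in TG and 0.33 in WT on the Ace subcluster, 1.14 and 0.64 on the Cd209a subcluster and 0.87 and 0.30 on Mono cells. NK1.1 was 1.501 and 0.54 on the Ace subcluster. The median cell held 9 UMIs of the 30 T, B and NK cell list genes in the TG Ace subcluster and 2 in WT, 11 and 3 in the Cd209a subcluster, and 12.5 and 4 in the Xcr1 cluster. As shares of a cell's UMIs these medians were 0.268% and 0.106% in the Ace subcluster and 0.166% and 0.0738% in the Cd209a subcluster, so that the typical TG cell carried more. The summed levels did not all go that way: the T cell list was at 268 CPM (TG) and 615 CPM (WT) in the Cd209a subcluster, where 0 of 38 TG and 12 of 121 WT cells held over 0.5% lymphocyte UMIs. In the Ace subcluster 18 of 51 TG and 5 of 37 WT cells did. The part of these transcripts in the differences below was not tested, except where values without such cells are given.

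Class II genes are read through short promoter elements, so promoter stretches are shown for 3 genes among those with the 10 highest ratios in the Ace subcluster, where H2-Aa and H2-Eb1 are class II genes and Gbp2 an interferon gene. Gzmb and Gzma, genes of cytotoxic lymphocytes, had the highest ratios there. Capitals mark the Y box (letters CTGATTGG), an element of class II promoters, in the 250 bases before the start of H2-Aa (chr17:34287824-34288073, minus strand) and H2-Eb1 (chr17:34305617-34305866, plus strand), and the interferon-stimulated response element (ISRE, letters GAAA, any 2 bases, GAAA, here read on the other strand) in 30 bases before the start of Gbp2 (chr3:142620594-142620623, plus strand). Sequences are from RefSeq on GRCm38.p6.
H2-Aa: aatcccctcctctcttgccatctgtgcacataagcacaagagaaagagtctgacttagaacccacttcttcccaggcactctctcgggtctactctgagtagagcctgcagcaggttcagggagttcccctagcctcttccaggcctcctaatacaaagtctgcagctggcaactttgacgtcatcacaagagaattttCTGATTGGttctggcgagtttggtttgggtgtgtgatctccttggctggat
H2-Eb1: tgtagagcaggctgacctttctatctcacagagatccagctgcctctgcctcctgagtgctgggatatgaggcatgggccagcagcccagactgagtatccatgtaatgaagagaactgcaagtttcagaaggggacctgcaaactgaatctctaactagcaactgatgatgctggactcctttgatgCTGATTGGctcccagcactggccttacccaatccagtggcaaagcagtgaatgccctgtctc
Gbp2: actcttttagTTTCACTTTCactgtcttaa
The Y box lies at -51 to -44 in H2-Aa and -62 to -55 in H2-Eb1, and the ISRE at -59 to -50 in Gbp2.

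Among all 32851 RefSeq promoters of this length, searched on both strands, 3.83% held the Y box, 2.98% the ISRE and 7.02% the interferon-γ element GAS (letters TTCNNNGAA). The Y box was in 4 of the 12 MHC class II list genes with a promoter (33.3%) and 6 of 16 MHC class I list genes (37.5%). The class I genes Psmb9 and Tap1 share the same matching bases, which were counted for both. In that class II list the ISRE and GAS were each in 1 of 12 (8.33%), and in the MHC class I list in 3 of 16 (18.8%) and 1 of 16 (6.25%). The ISRE was in 11 of 18 genes of the interferon-γ list (61.1%), GAS in 7 of 18 (38.9%) and the Y box in 3 of 18 (16.7%). By gene, with any of its promoters counted, the shares over 27025 genes were 4.43% for the Y box, 3.46% for the ISRE and 8.13% for GAS. A match says only that these letters are present.

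In the Ace subcluster the MHC class II genes stood higher in TG than in WT. H2-Ab1 (chr17:34257689-34269419, plus strand, GRCm38), the class II β chain of I-A, had 537 UMIs in 51 TG cells and 16 UMIs in 37 WT cells. This was 2687 CPM (2465 to 2924) against 144.6 CPM (82.7 to 235), a log2 ratio of 4.17 (3.50 to 5.03). H2-Aa, its α chain partner, had 461 and 22 UMIs, 2307 CPM against 199 CPM and a log2 ratio of 3.50 (2.92 to 4.22). H2-Eb1 had 280 and 11 UMIs, 1401 CPM against 99.4 CPM and a log2 ratio of 3.75 (2.96 to 4.84). The counting intervals of the libraries did not meet for any of these, but they leave out the spread between cells and between mice. Cd74, which guides class II molecules to the endosome, had 1340 and 151 UMIs and a log2 ratio of 2.29 (2.05 to 2.55).

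The loading factor H2-DMa had 38 and 5 UMIs (log2 ratio 1.95, 0.73 to 3.78), and its partner H2-DMb1 17 and 4 UMIs (1.11, -0.38 to 3.27). Ctss, the cathepsin that trims the invariant chain, was level at 1992 and 2070 CPM. Lgmn (legumain), another class II protease, was the list's single lower gene with 10 and 13 UMIs (-1.22, -2.58 to 0.07). The coactivator Ciita had 15 and 3 UMIs, under the minimum (log2 ratio 1.29, -0.35 to 3.90). Of the list, 6 of the 8 list genes measured (of 15) were at least 2-fold higher and 1 was lower, with a median log2 ratio of 2.12. Over all 2948 genes tested in the Ace subcluster 7.43% were higher and 4.88% lower, and the median was -0.01. That balance turned with cells thinned to 1000 UMIs, from 219 higher and 144 lower to 56 and 59.

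Cells that should not make class II give the level of carried-over RNA. In NK cells H2-Ab1 was at 182 CPM (TG) and 93.4 CPM (WT), and in CD4 T cells at 146 and 65.2 CPM. The WT Ace subcluster at 144.6 CPM, with its 16 UMIs in 7 cells, lay near that level, and the TG Ace subcluster at 2687 CPM lay well above it. H2-Aa was at 138 and 56.7 CPM in NK cells, H2-Eb1 at 84.6 and 48.6 CPM, and Cd74 at 426 and 200.5 CPM, below the WT Ace level of Cd74 (1365 CPM). For comparison, mature B cells carried H2-Ab1 at 5389 and 4655 CPM. Of TG Ace cells 94.1% held a UMI of H2-Ab1 and of WT Ace cells 18.9%, beside 37.0% and 12.9% of NK cells at median depths of 2813 and 2473 UMIs.

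**Figure D3:**
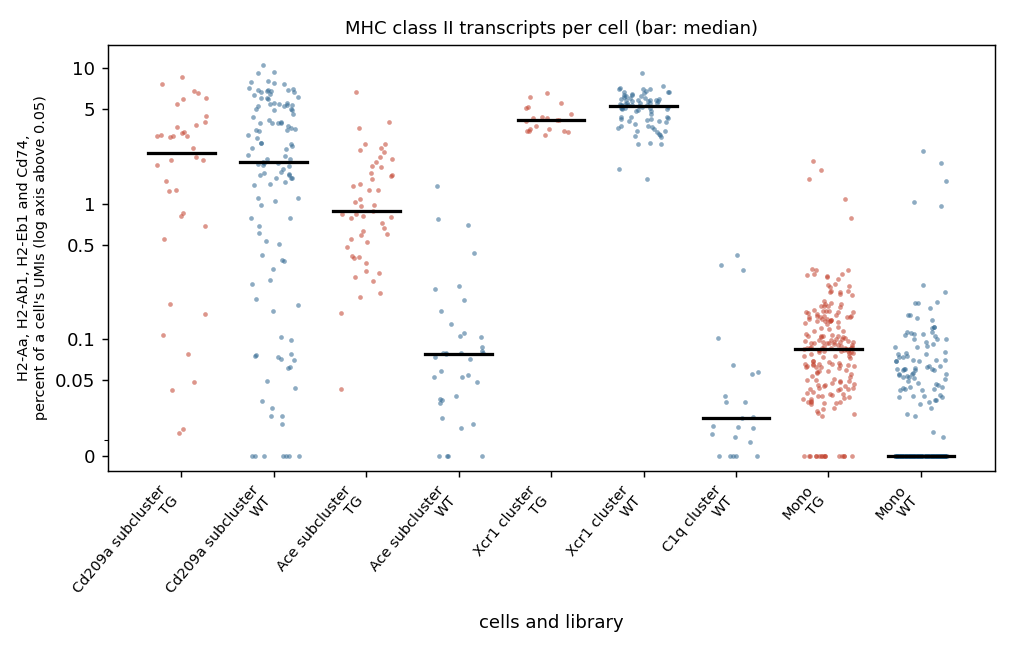
Share of each cell's UMIs in 4 MHC class II genes (H2-Aa, H2-Ab1, H2-Eb1 and Cd74; percent, 1 point per cell, bar at the median, on an axis that is logarithmic above 0.05 and linear below) in the parts of Macro and in Mono, for each library. In the Ace subcluster the TG median is 0.889% and the WT median 0.0775%, and the libraries overlap, with 1 of 37 WT cells above the TG median. The medians are 2.39% and 2.05% in the Cd209a subcluster and 4.18% and 5.24% in the Xcr1 cluster, where the libraries overlap too.

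Most TG cells lay above the WT median, while a few cells held a large part of the summed counts. In the TG Ace subcluster 3 cells held 39.7% of the H2-Ab1, 43.2% of the H2-Aa, 45.7% of the H2-Eb1 and 25.1% of the Cd74 UMIs. Per cell, H2-Aa, H2-Ab1, H2-Eb1 and Cd74 took a median of 0.889% of UMIs in the TG Ace subcluster (lowest 0.0443%, highest 6.66%) and 0.0775% in WT (0 to 1.36%). Of 51 TG cells 50 lay above the WT median and 18 above the highest WT cell, and 1 of 37 WT cells lay above the TG median. The groups overlapped. Thinned to 1000 UMIs per cell the medians were 0.9% and 0.1%. In the Cd209a subcluster the medians were 2.39% in TG and 2.05% in WT, in the Xcr1 cluster 4.18% and 5.24%, in the C1q cluster 0.0247% and in Mono cells 0.0858% and 0.

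The class II ratios were also computed without the cells richest in other cells' transcripts. With cells over 0.5% lymphocyte UMIs left out, 33 TG and 32 WT Ace cells remained. H2-Ab1 then had 420 and 7 UMIs (log2 ratio 5.40, 4.45 to 6.83), H2-Aa 349 and 5 (5.58, 4.48 to 7.35) and Cd74 989 and 84 (3.14, 2.83 to 3.49). Without any cell holding a UMI of B cell or dendritic cell marker genes, 30 and 30 cells remained. H2-Ab1 had 293 and 7 UMIs (4.97, 4.01 to 6.40), H2-Aa 197 and 4 (5.14, 3.92 to 7.19) and Cd74 723 and 81 (2.83, 2.51 to 3.19). Both filters were chosen after the data were seen, and neither removed all such transcript: 48 of 51 TG and 27 of 37 WT Ace cells held at least 2 lymphocyte UMIs, and the cells left by the marker filter still held 130 UMIs of Gzma and 59 of Gzmb in TG. The part of carried-over RNA in the class II values was not tested. The B cell list itself stood at 1201 CPM (TG) and 2215 CPM (WT), with Ms4a1 at 2 and 19 UMIs.

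Some genes of the interferon-γ response were also higher in the TG Ace subcluster. TG cells shared their capture with IFN-γ ARE-Del-/- cells, whose part in these and in the class II values was not tested. Of 17 measured (of 28), 9 were at least 2-fold higher and 1 lower, with a median log2 ratio of 1.19. Over all genes tested in this subcluster 7.43% were higher and 4.88% lower. The number of list genes higher was 3 with cells thinned to 1000 UMIs, 4 with a minimum of 50 UMIs and 5 without the cells holding B or dendritic cell marker UMIs, where fewer list genes were measured. Gbp2, a GTPase that attacks intracellular microbes, had 73 and 2 UMIs (log2 ratio 4.03, 2.43 to 7.41), and Gbp5 had 27 and 0 UMIs, at least 4.98-fold higher. The GTPases Iigp1 (23 and 1 UMIs, log2 ratio 3.12, 1.05 to 9.04), Irgm1 (34 and 4, 2.08) and Ifi47 (57 and 10, 1.60) went the same way. Not all members did: Irf1 was at 0.39 (-0.12 to 0.94), Cd274 (PD-L1) at 0.43 (-0.34 to 1.31), the receptor chain Ifngr1 at -0.44 (-1.001 to 0.13), and the chemokine Cxcl10 at -1.70 (-2.88 to -0.65).

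Of 17 MHC class I genes measured (of 18), 7 were at least 2-fold higher and none lower, with a median log2 ratio of 0.94, and 4 were higher with cells thinned or with a minimum of 50 UMIs. All genes tested in the Ace subcluster gave 7.43% higher and 4.88% lower. The peptide transporter Tap1 had 85 and 11 UMIs (log2 ratio 2.04, 1.19 to 3.15), the immunoproteasome subunit Psmb9 68 and 9 (2.00, 1.06 to 3.25) and the class I coactivator Nlrc5 39 and 7 (1.54). The heavy chain H2-K1 was at 4429 CPM against 2377 CPM (0.90), B2m at 9693 against 6608 CPM (0.55) and H2-D1 at 6050 against 5496 CPM (0.14). The type I interferon list, of which 3 of 12 measured genes were higher and 1 lower, had a median of -0.04.

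**Figure D4:**
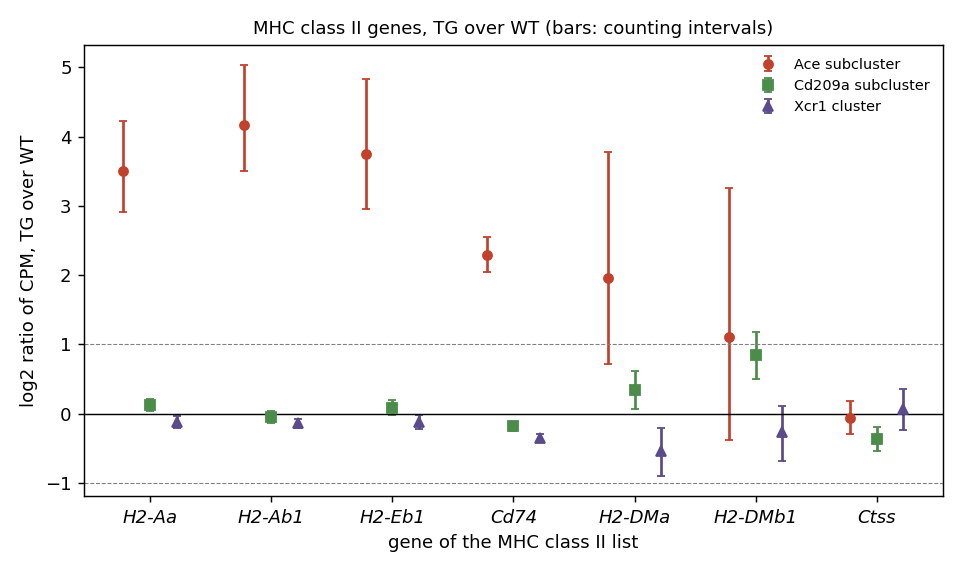
Log2 ratio of TG over WT with 95% counting intervals for 7 genes of the MHC class II list in the Ace subcluster, Cd209a subcluster and Xcr1 cluster, with dashed lines at 2-fold. In the Ace subcluster H2-Ab1 lies at 4.17 and Cd74 at 2.29, while Cd74 lies at -0.18 in the Cd209a subcluster and -0.35 in the Xcr1 cluster.

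Other genes higher in the TG Ace subcluster included some of the subcluster's own kind. Fcgr4, an activating receptor for IgG carried by patrolling monocytes, had 286 and 73 UMIs (1431 against 660 CPM, log2 ratio 1.11, 0.74 to 1.51). Ly6i had 183 and 20 UMIs (2.31), the peptidoglycan sensor Nod1 59 and 9 (1.79) and the transcription factor Irf8 51 and 10 (1.44). NK cell genes and some T cell genes were higher beside them in this library: 6 of the 6 NK cell list genes measured and 3 of 8 T cell genes were at least 2-fold higher, against 7.43% of all genes tested. Those lists summed to 4394 against 497 CPM and 2222 against 1374 CPM, while the summed B cell list, given above, was lower. Gzma, a granule protease, had 426 and 5 UMIs with 48.1% of the TG UMIs in 3 cells. Gzmb had 147 and 0 UMIs, at least 27.1-fold higher, and the chemokine Ccl5 845 and 85 (log2 ratio 2.45, 2.14 to 2.80). Without cells over 0.5% lymphocyte UMIs, Ccl5 was at 0.84 (0.23 to 1.504), Gzma at 24 and 4 UMIs and Gzmb at 9 and 0 UMIs (at least 2.27-fold higher). The granzymes are themselves in the lists that defined that filter. Klrb1c, which encodes NK1.1, had 80 and 17 UMIs (1.35), as the NK1.1 antibody differed above.

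Several inflammatory genes were among those lower in the TG Ace subcluster, where 4.88% of all genes tested were lower. Of the inflammatory cytokine list 2 of 8 measured genes were lower and 1 higher (median log2 ratio -0.19), and of the chemokine list 2 of 7 were lower and 1 higher (median -0.47), so most measured members did not pass 2-fold. Il1b, the inflammatory cytokine, had 51 and 80 UMIs (255 against 723 CPM, log2 ratio -1.498, -2.04 to -0.98, with 50% of the WT UMIs in 3 cells), and Nlrp3, an inflammasome sensor, 8 and 21 (-2.19). The neutrophil chemokine Cxcl2 had 35 and 240 UMIs (-3.61, -4.19 to -3.12) with 62.5% of the WT UMIs in 3 cells. Trib1, a pseudokinase, was at -2.30, the NF-κB subunit Rel at -1.80, the receptor Trem1 at -1.92 and the receptor Clec4e at -1.47. Ptgs2 (cyclooxygenase-2) had 0 and 31 UMIs, at least 18.7-fold lower, all of them in 4 WT cells. Apoe, the lipid carrier, had 172 and 278 UMIs (-1.54, -1.83 to -1.27), Lyz2 550 and 750 (-1.30) and Itgam 44 and 71 (-1.54). The difference in Apoe was -1.57 and that in Itgam -1.51 without lymphocyte-rich cells. Summed neutrophil transcripts were lower too, with 5 of 5 measured list genes lower and the list at 660 CPM (TG) and 3670 CPM (WT), but a few WT cells carried that sum. S100a8 had 95 UMIs in 4 WT cells, 98.95% of them in 3, and 34 UMIs in 22 TG cells. By cell the order was the reverse, as 24 of 51 TG cells and 3 of 37 WT cells held at least 2 UMIs of S100a8, S100a9 or Retnlg.

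In the Cd209a subcluster the class II genes were level between the libraries. H2-Aa was at 5807 CPM (TG) and 5323 CPM (WT) (log2 ratio 0.13, 0.03 to 0.22), H2-Ab1 at 6306 and 6513 CPM (-0.05, -0.13 to 0.04) and H2-Eb1 at 3898 and 3664 CPM (0.09, -0.02 to 0.20). Of 12 class II genes measured, none was past 2-fold in either direction, and the median was 0.02. Over all 5748 genes tested here 4.05% were higher and 4.78% lower. The coactivator Ciita was at 433 and 306 CPM (0.50, 0.14 to 0.86).

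Interferon genes of the Cd209a subcluster were higher for some members. Of 21 interferon-γ list genes 4 were at least 2-fold higher and 1 lower (median 0.35), and of 20 type I interferon genes 3 were higher and none lower (median 0.56). All genes tested in this subcluster gave 4.05% higher and 4.78% lower. The GTPases Gbp4 (15 and 13 UMIs, log2 ratio 1.43, 0.27 to 2.63) and Gbp3 (21 and 21, 1.23, 0.29 to 2.18) and the antiviral sensor Oas3 (16 and 12, 1.63, 0.47 to 2.86) were among them. Iigp1 had 19 and 4 UMIs (3.35), with 78.9% of the TG UMIs in 3 cells. Outside these lists Fgl2, a secreted fibrinogen-like protein, had 70 and 37 UMIs (2.14, 1.56 to 2.77) and Aif1 47 and 42 (1.39, 0.76 to 2.03).

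Some macrophage and monocyte genes were lower in the TG Cd209a subcluster, though not their lists as a whole. Of the pan macrophage list 5 of 15 measured genes were lower and 1 higher (median log2 ratio -0.22), and of the classical monocyte list 4 of 13 were lower and none higher (median 0.33), with that list at 10979 CPM (TG) and 10838 CPM (WT). Among all genes tested here 4.78% were lower and 4.05% higher. Apoe had 9 and 244 UMIs (37.1 against 429 CPM, log2 ratio -3.46, -4.68 to -2.58). Lyz2 had 434 and 2107 UMIs (-1.05) and Chil3, a chitinase-like secreted protein, 17 and 164 (-2.002, all TG UMIs in 1 cell). Il1b had 11 and 154 (-2.52, -3.61 to -1.70), with over 50% of the WT UMIs in 3 cells. The transcription factor Maf (3 and 40 UMIs) and the endotoxin coreceptor Cd14 (2 and 42) were also lower. Il7r, the IL-7 receptor, had 2 and 52 UMIs (-3.16, -6.55 to -1.54) and Pde4b, a cAMP phosphodiesterase, 9 and 129 (-2.54). The WT subcluster held 5 cells with at least 5 C1q UMIs, and their part in the Apoe and Maf values was not tested. Cxcl2 (53 and 474 UMIs, -1.92) and Cxcl10 (23 and 141, -1.36) were lower as well.

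In the Xcr1 cluster 10 of 13 measured class II genes lay within 2-fold between the libraries. H2-Ab1 was at 12180 and 13427 CPM (log2 ratio -0.14, -0.21 to -0.07), H2-Aa at 8475 and 9191 CPM (-0.12) and Cd74 at 16296 and 20804 CPM (-0.35, -0.41 to -0.29). The other 3 were at least 2-fold lower and none was higher: H2-DMb2 (10 and 88 UMIs, -1.34), H2-Ob, which restrains peptide loading (22 and 167, -1.16), and the transcription factor Rfx5 (1 and 20, -2.04, -7.96 to 0.06). Of all 5055 genes tested, 5.64% were higher and 6.63% lower, from 20 TG and 80 WT cells, so that 46.0% of calls were higher (31.0% with TMM scaling, which rescales the totals). The median of the class II list was -0.35 and that of all genes 0.08.

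Most chemokine genes measured and a few immediate early genes were lower in the TG Xcr1 cluster. Of 8 chemokine genes measured 6 were lower and 1 higher (median log2 ratio -2.005, or -1.74 with Cxcl10 at its bound), beside 6.63% lower and 5.64% higher over all genes tested. Ccl4 had 5 and 77 UMIs (-2.08, -3.87 to -0.93), with over 50% of the WT UMIs in 3 cells. Ccl6 had 8 and 107 (-1.93), Ccl3 2 and 40 (-2.28) and Cxcl16 2 and 36 (-2.13), while Cxcl10 had 0 and 24, at least 2.41-fold lower. Egr1, an immediate early gene, had 40 and 980 UMIs (236 against 1736 CPM, -2.86, -3.38 to -2.43). Zfp36 (312 and 2430, -1.23), Fosb (132 and 1054, -1.26) and Atf3 (21 and 176, -1.30) followed it. Of this list 4 of 18 genes were lower and 1 higher, the heat shock gene Hspa1b (50 and 34, 2.28, 1.63 to 2.96), with over 50% of its TG UMIs in 3 cells. Such genes are also known to be induced when tissue is dissociated, whose part was not tested. In pDC Egr1 was at 363 CPM (TG) and 856 CPM (WT), and in NK cells at 244 and 302 CPM.

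Cell cycle genes were lower in part: 4 of 17 measured, none higher, with a median of -0.46. All genes tested in the Xcr1 cluster gave 5.64% higher and 6.63% lower. Top2a, a topoisomerase of dividing cells, had 6 and 110 UMIs in the Xcr1 cluster (log2 ratio -2.35, -3.94 to -1.30), in 2 TG and 20 WT cells, but Mki67 was at 124 and 147 CPM (-0.22, -1.02 to 0.46). Clec9a, the receptor for dead cells, was at 218 and 443 CPM (-1.01, -1.56 to -0.52), while Xcr1 itself was at -0.19 (-0.58 to 0.18) and Batf3, a lineage factor, at 0.16 (-0.45 to 0.71). The iron regulator Hfe had 1 and 51 UMIs (-3.37, -9.27 to -1.40), and Mt1, a metallothionein, 6 and 109 (-2.34). Among interferon genes Irgm1 had 32 and 32 UMIs (1.73, 0.98 to 2.49) and Ifi47 22 and 23 (1.67). Each had over 50% of its TG UMIs in 3 cells (72.7% for Ifi47). Of the interferon-γ list 3 of 10 measured genes were higher and 1 lower.

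**Figure D5:**
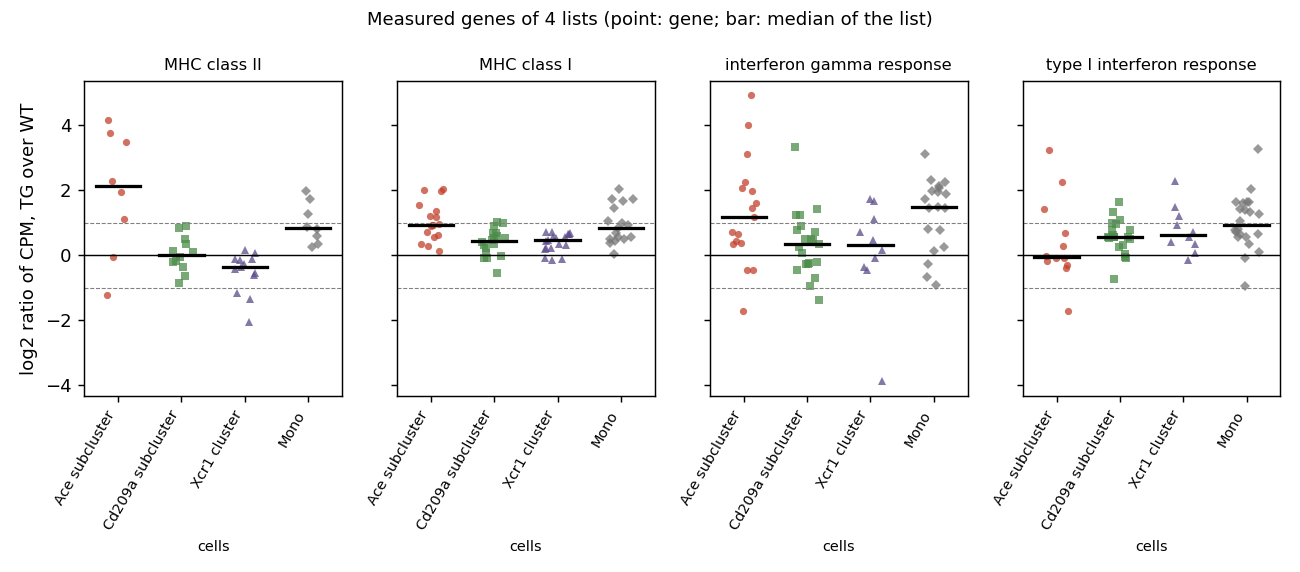
Log2 ratio of TG over WT for the measured genes of 4 lists (1 point per gene, bar at the median, dashed lines at 2-fold) in the Ace subcluster, Cd209a subcluster, Xcr1 cluster and Mono cells, where genes at 0 in 1 library are drawn at their fitted value. The MHC class II list lies at 2.12 in the Ace subcluster, 0.02 in the Cd209a subcluster and -0.35 in the Xcr1 cluster, and the interferon-γ list at 1.19, 0.35 and 0.33.

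TGF-β pathway genes showed no common direction in the Ace subcluster, with 2 of 13 measured genes higher, 3 lower and a median of -0.01, beside 7.43% higher and 4.88% lower over all genes tested. The receptor Tgfbr2 had 42 and 8 UMIs there (log2 ratio 1.47, 0.43 to 2.84), the signal carrier Smad4 23 and 6 (1.00) and the inhibitor Smad7 9 and 11 (-1.13). In the Xcr1 cluster Tgfbr2 had 3 and 30 UMIs (-1.39), and in the Cd209a subcluster 9 and 36 (-0.71). NK cells carried Tgfbr2 at 362 CPM in TG, above the TG Ace level of 210 CPM, and at 143 CPM in WT, below it. Whether reads of the human transgene were counted as Tgfbr2 was not tested.

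Against Mono, Macro cells of both libraries were higher in dendritic cell genes, and the Mono cells themselves carried neutrophil genes. Of 12 pan conventional dendritic cell genes 10 were at least 2-fold higher in TG Macro and 11 in WT Macro, with 1 lower in each. Among all genes tested 42.2% were higher and 13.6% lower in TG, and 40.4% and 12.9% in WT. The cells were named from their expression, so these counts are a description. The 5 of 12 macrophage genes higher in TG, given next, lie near the share over all genes. Of the pan macrophage list 5 of 12 measured genes were higher and 3 lower in TG (median log2 ratio -0.05, against 0.75 over all genes) and 9 of 17 higher and 3 lower in WT (1.61, against 0.66). The pan macrophage list summed to 8080 CPM in TG Macro, below the 10582 CPM of TG Mono. S100a8 was at 21386 CPM in TG Mono and 10788 CPM in WT Mono, Retnlg at 10455 and 10254 CPM and Cxcr2, a receptor of neutrophils, at 2715 and 3094 CPM. The neutrophil list summed to 67226 and 47714 CPM. Of 204 TG Mono cells 204, and of 258 WT Mono cells 255, held at least 2 UMIs of S100a8, S100a9 or Retnlg. The contrast is therefore one with cells that carry neutrophil genes. Mono cells also held fewer mitochondrial UMIs, with medians of 0.706% and 0.744% against 4.09% and 4.25% in Macro.

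In TG 42.2% of 6491 genes were at least 2-fold higher in Macro than in Mono and 13.6% lower. In WT 40.4% of 7998 genes were higher and 12.9% lower. Of 6397 genes tested in both, 1972 were higher in both, 707 lower in both and 16 opposite. These splits rest on scaling: over all genes the median log2 ratio was 0.75 in TG and 0.66 in WT, and TMM scaling brought it to 0.03 and 0.21 and the share of calls that were higher from 75.6% to 48.6% in TG and from 75.8% to 59.9% in WT. Among the highest in TG were Cd209a (144 and 0 UMIs), Flt3 (97 and 0) and Clec9a (52 and 0). In WT they were C4b (834 and 0), C1qb (562 and 0) and Xcr1 (289 and 0). Among the lowest were Cxcr2, with 1 and 1624 UMIs in TG and 39 and 1617 in WT, and Chil1 with 0 and 242 in TG and 2 and 161 in WT.

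Mono cells had their own difference between the libraries. Of 19 interferon-γ list genes 12 were at least 2-fold higher in TG and none lower (median 1.505), and of 22 type I interferon genes 11 were higher (median 0.94). Gbp2 had 454 and 45 UMIs (759 against 86.1 CPM, log2 ratio 3.12, 2.70 to 3.62) and Cd274 190 and 37 (2.15, 1.65 to 2.72). H2-Ab1 was at 394 and 119 CPM (1.73, 1.33 to 2.16), beside 182 and 93.4 CPM in NK cells. B cell transcripts moved with it, as the B cell list stood at 5619 CPM in TG Mono and 1339 CPM in WT Mono, and single Mono cells held up to 18.11% (TG) and 6.70% (WT) lymphocyte UMIs. Their part in the class II values was not tested. Over all 5027 genes tested in Mono 4.65% were higher and 4.95% lower, a balance that turned under other settings (48.45% of calls higher here, 58.04% with TMM scaling, 57.17% with doublets out and 63.45% with a minimum of 50 UMIs). The Ace subcluster had the larger H2-Ab1 ratio and Mono cells the larger Cd274 ratio. These differences between cell types were not tested.

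Taken over all Macro cells, 4.53% of 8207 genes were at least 2-fold higher and 3.96% lower in TG than in WT, and 53.4% of these calls were higher (39.9% with TMM scaling). This sum mixes parts in different proportions, since the Ace subcluster was 51 of 109 TG and 37 of 261 WT cells, and so no gene ratio is given from it.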

How the data were processed

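Liver CD45+ cells were measured in 2 pooled capture libraries, from which TG and WT cells were told apart by sample tags. The authors made the deposited counts of UMIs per gene and cell with the BD Rhapsody pipeline (STAR alignment, mm10, corrected UMIs), filtered and named the cells in Seurat, and clustered them after integration. The deposited antibody values are the authors' centred log ratios over the antibodies of a cell, on a natural log scale, beside their antibody counts. The mitochondrial percent per cell is the authors' own column. Total UMIs per cell set the precision, and intervals cover counting error only. Genes were filtered by the authors within each genotype, which left rare genes at 0.

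UMIs were summed per cell set and library with Python 3.11.15, NumPy 2.4.6, SciPy 1.17.1 and pandas 2.3.3, with a pseudocount of 0.5 UMIs, at least 20 UMIs for a call and no test. Intervals are exact Poisson for CPM, conditional binomial for ratios, Clopper-Pearson for shares and Newcombe for their differences, at 95%. Scripts were tested on simulated data. Genes named are the 4 markers, members of 37 lists, and the 10 highest and 10 lowest ratios per comparison with at least 50 UMIs and at most 50% of UMIs in 3 cells. The members and lists were chosen with earlier results of these data known. Scrublet, as run in scanpy 1.11.5, marked 39 TG cells (0.839%) and 241 WT cells (3.31%) as doublets, 2 of them Macro, and none were removed. Alternatives were TMM scaling (edgeR 4.0.16), thinning to 1000 UMIs, other minimums, doublets out and cell filters. The subclusters on their own and both transcript filters on cells (over 0.5% lymphocyte UMIs, or B and dendritic cell markers) were added after seeing the data. Some genes are not reported here.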

Additional observations from a re-analysis of the deposited data

Results flagged for a closer look

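The class II genes H2-Aa, H2-Ab1, H2-Eb1, H2-DMa and Cd74 are listed because their log2 ratios were above 0 in the Ace subcluster and below 0 in the Xcr1 cluster. None of them passed 2-fold in the Xcr1 cluster, where TMM scaling alone moved the median of all genes from 0.08 to -0.07, and the difference between these parts was not tested. The log2 ratios of TG over WT were 3.505 and -0.1166 for H2-Aa, 4.173 and -0.1404 for H2-Ab1, 3.755 and -0.1248 for H2-Eb1, 1.954 and -0.5334 for H2-DMa, and 2.292 and -0.3521 for Cd74.

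Cells without a genotype name were used in no comparison, and some of them held C1q transcript. At least 5 C1q UMIs were found in 10 of 5379 such cells of the TG library (0.186%, 0.0892 to 0.342) and in 26 of 16829 of the WT library (0.154%, 0.101 to 0.226). Clec4f, the Kupffer cell lectin, had 69 UMIs among the 16829 cells of the WT library, 54 of them in 3 cells with C1q, and 1 UMI in named WT cells.

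Genes without a row in the filtered table were also found in the library file. In the 23 cells of the C1q cluster Arg1 (arginase 1) had 22 UMIs in 3 cells and the chemokine Cxcl14 had 10 UMIs in 7 cells.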

How the results depend on the processing

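Of 136 alternatives to the main values 89 left them close to where they were and 47 moved them, and of 188 for single genes and smaller lists 165 and 23 did so. No log2 ratio of the single genes so checked, all in the Ace subcluster, and no difference in shares changed sign. Some of these alternatives could not move a value. The minimum of UMIs does not enter a single gene's ratio, and no cell of the Ace subcluster was marked as a doublet. Leaving out cells under 1000 UMIs removed no cell from the shares. Single genes of the other comparisons were not checked. The balance of higher and lower calls did turn: with TMM scaling 372 higher and 325 lower became 270 and 406 for Macro TG over WT, 2739 and 886 became 1500 and 1587 for Macro over Mono in TG, and 234 and 249 became 278 and 201 for Mono (259 and 194 with doublets out, 92 and 53 with a minimum of 50 UMIs). Counts of genes past 2-fold depended on the minimum of UMIs. With thinning to 1000 UMIs, a minimum of 50 UMIs and no minimum, in that order, they were 418, 300 and 2542 for Macro TG over WT (697 in the report's setting), 159, 121 and 2970 for the Cd209a subcluster (508), 115, 81 and 3363 for the Ace subcluster (363), 93, 158 and 2966 for the Xcr1 cluster (620) and 280, 145 and 3537 for Mono (483). Macro over Mono gave 1388, 1990 and 7353 in TG (3625) and 2029, 2739 and 6714 in WT (4262), or 1886 in WT without cells holding lymphocyte transcripts. Against the other Macro cells, clusters 15 and 22 each gave 293, 477 and 3833 in TG (1241), and in WT cluster 15 gave 446, 600 and 3697 (1179), cluster 22 gave 549, 763 and 4276 (1486) and cluster 27 gave 886, 1406 and 4989 (2474).

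In the Ace subcluster the interferon-γ genes called higher were 3 thinned, 4 with the minimum of 50 and 5 without B or dendritic cell marker cells, and the MHC class I genes called higher were 4 thinned and 4 with the minimum of 50. Without the marker cells 237 genes passed 2-fold. The Ace subcluster on its own gave 363 calls where all Macro cells gave 697. Fewer genes were tested in each of these. Among myeloid names only, the Macro share differed by -10.05 points (-15.07 to -4.81), and without cells holding lymphocyte transcripts, which left 4 Macro cells of 18 in TG and 52 of 221 in WT, by -1.31 points (-15.83 to 22.25). As shares of antibody counts the CD172a difference was 3.259 in TG and 3.335 in WT. Leaving out cells with at least 2 lymphocyte UMIs kept too few cells for the clusters and was not run there, and Mono is 1 cluster. No paired analysis was possible because each genotype is 1 library.

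Depth limits these data: 20 TG cells of the Xcr1 cluster and 37 WT cells of the Ace subcluster carry the comparisons and no value separates genotype from capture.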
